A study of Mus musculus with 71 samples.

Results

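C3H/10T1/2 is an embryonic mouse line of fibroblast-like mesenchymal cells, and in culture it can be driven to form adipocytes. The samples described here are the 6 C3H/10T1/2 arrays, of 71 arrays in the series, that were labeled 24 hrs: 3 with rosiglitazone (RSG) and 3 with the vehicle dimethyl sulfoxide (DMSO). They were chosen by their titles alone. In all C3H/10T1/2 groups the cells had been differentiated with insulin and RSG, and had then spent 24 hrs in a serum-free washout medium with neither. After the washout they received RSG at 1 µM or DMSO in the same medium. The 3 DMSO arrays at 1 hr are given beside them as the level near the start of treatment. According to the methods each RNA sample pooled 2 wells and the 3 replicate numbers stand for separate differentiations of 1 line. The main fit takes out the mean difference between replicate numbers. Its p-values thus measure the spread between cultures of that line that is left, estimated over all 36 C3H/10T1/2 arrays. The RSG and DMSO arrays at 48 hrs, and those of 3T3-L1 adipocytes at 24 hrs, enter 2 tests of difference near the end.

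RSG is a thiazolidinedione, a synthetic ligand of the nuclear receptor PPARgamma. As a heterodimer with RXR, PPARgamma binds DNA in adipocytes, where it drives differentiation and lipid storage genes. Ligand also lowers many genes, among them inflammatory and fibroblast genes, and much of that is thought to act without direct binding of the receptor to those genes. The comparison asked what a day of ligand did to adipocytes that were already mature, with weight here on the genes that fell and on those that rose outside mitochondria.

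Signals are MAS 5.0 values on a linear scale, and a probe set was called present at 19.9 or more. The 6 arrays were alike in quality: 62.9% to 64.5% of probe sets were present in RSG arrays and 63.8% to 66.0% in DMSO arrays at 24 hrs. The 3'/5' signal ratio of actin, a measure of RNA integrity, was 1.29 to 1.35 with RSG and 1.33 to 1.36 with DMSO. The cells carried adipocyte markers at high signal in both groups. Adipoq, which encodes adiponectin, averaged 6544 ± 1065 with RSG and 6603 ± 718 with DMSO (SD, n = 3 each), a difference that did not pass the test (log2 -0.019, 95% confidence interval -0.25 to 0.21). Of 9 adipocyte markers tested, at 1 probe set each, 1, Cidec, rose and none fell. Over all 17 probe sets of these markers 5 were raised and 0 lowered. The call for Cidec was lost without the replicate number in the fit (limma adjusted p = 0.0622). It was also lost without RSG replicate 3 or any 1 of the DMSO replicates (0.0673 to 0.263). Lep, a further marker with a probe set, was absent on all 6 arrays. The known RSG target Pdk4, a kinase that holds back pyruvate oxidation, gave 517.8, 522.3 and 698.8 in RSG cells, against 130.1, 163.9 and 136.1 in DMSO cells at 24 hrs and 479.5, 459.4 and 491.1 in DMSO cells at 1 hr. All RSG arrays lay above all DMSO arrays at 24 hrs (4.02-fold, log2 2.01 ± 0.16 SE, adjusted p = 2.68e-10).

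Across the array, 864 probe sets were higher and 1172 lower in RSG than in DMSO cells at 24 hrs, which is 5.36% and 7.27% of the 16123 tested (limma with the replicate number as a block, Benjamini-Hochberg adjusted p under 0.05). Taking 1 probe set per gene, 551 of 9425 genes rose and 745 fell (5.85% and 7.9%). At an unadjusted p under 0.05, 1507 probe sets were higher and 2477 lower. Genes with a mitochondrial name made up 150 of the 551 that rose and 12 of the 745 that fell, so 401 rose outside them. Of the 453 tested genes with such a name 33.1% rose and 2.65% fell, against 4.47% and 8.17% of the 8972 others. On the deposited scaling the falls were about as large as the rises. The median change was -0.60 on the log2 scale among genes that fell and 0.58 among genes that rose, beside -0.07 over all genes. More than 2-fold changes were seen in 67 raised and 115 lowered genes, and 60 of those 67 had no mitochondrial name. The RSG arrays all lay above the DMSO arrays of 24 hrs in 508 of the 551 raised genes and all below them in 649 of the 745 lowered genes. Such separation also held for every gene whose 3 array values per group are listed below, except Acta2 and Mb. For most of these genes it was a condition of being named, so it adds no support. The balance between the directions depended on the scaling, since quantile normalization gave 976 probe sets higher and 893 lower. Leaving out DMSO replicate 2 gave 749 lowered and leaving out RSG replicate 1 gave 773, and 656 were lowered with no replicate number in the fit.

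**Figure D1:**
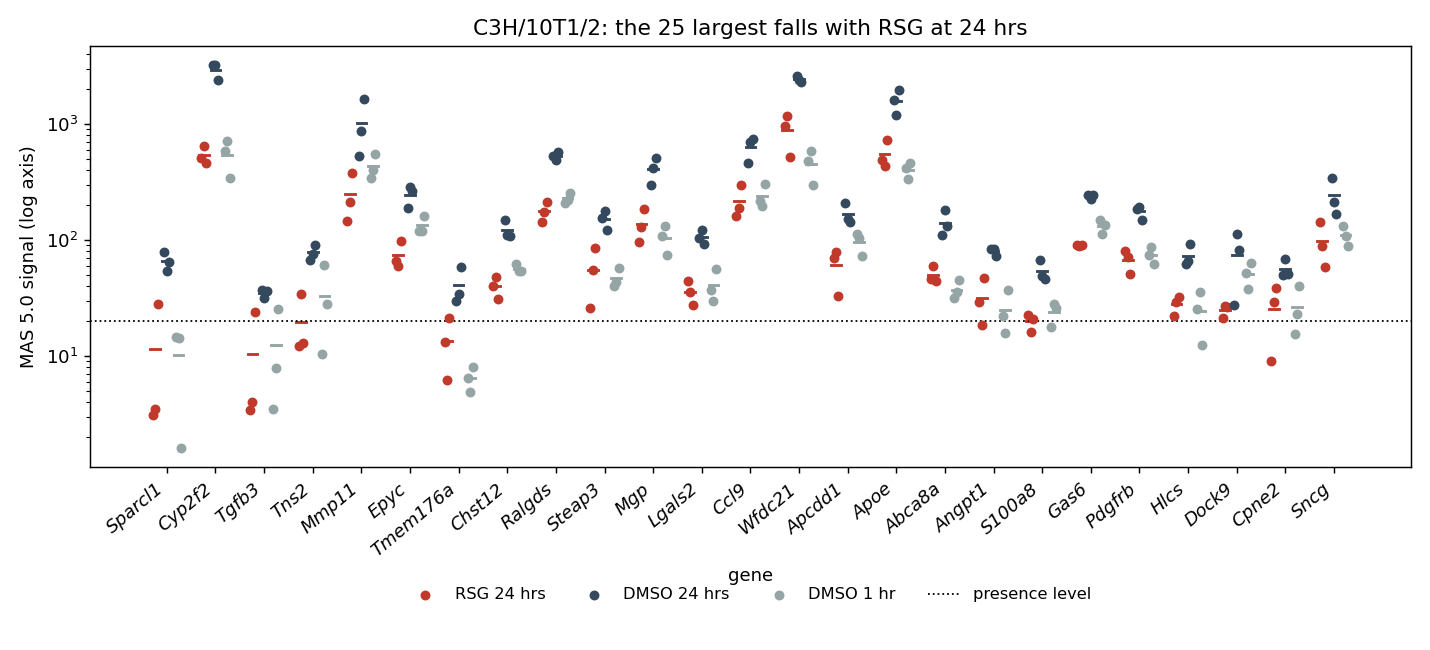
Signal of each array (points, log axis) and group means (short lines), with the presence level dotted, for the 25 genes with the largest falls, with RSG at 24 hrs, DMSO at 24 hrs and DMSO at 1 hr from left to right for each gene. In all 25 the RSG arrays lie below the DMSO arrays of the same time, which the choice of these genes required, and Cyp2f2 averages 542 with RSG, 2932 with DMSO at 24 hrs and 543 with DMSO at 1 hr.

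Cyp2f2, a cytochrome P450 known from mouse airway and liver, combined a large fall with high signals. It read 511.6, 649.9 and 463.9 in RSG cells, against 3224, 3198 and 2375 in DMSO cells at 24 hrs and 579.7, 707.3 and 342.6 in DMSO cells at 1 hr. It was thus 5.41-fold lower with RSG than with DMSO of the same time (log2 -2.44 ± 0.11 SE, adjusted p = 1.94e-15), and RSG cells held about the level of DMSO cells at 1 hr (log2 0.045 against them, adjusted p = 0.874). The fall of Sparcl1, a secreted matrix protein also called hevin, was larger but rested on low signals (9.65-fold, log2 -3.27 ± 0.76 SE, adjusted p = 0.00354). Its RSG arrays read 3.1, 3.5 and 28, against 78.8, 54.2 and 64 with DMSO at 24 hrs and 14.6, 14.4 and 1.6 with DMSO at 1 hr. In 2 of the RSG arrays and in all 3 arrays at 1 hr it was under the presence level.

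Genes of the extracellular matrix were prominent among the falls. Adipocytes and their precursors lay down collagens and proteoglycans, and the enzymes that cut or cross-link these are secreted with them. Mmp11 (stromelysin-3), a metalloprotease of remodeling tissue, read 146.4, 212.2 and 381.8 with RSG, against 529.3, 874.5 and 1630 with DMSO at 24 hrs and 343.3, 404.9 and 555.1 with DMSO at 1 hr. Its fall was 3.99-fold (log2 -2 ± 0.17 SE, adjusted p = 2.19e-09), and unlike Cyp2f2 it also ended below DMSO cells at 1 hr (log2 -0.9, adjusted p = 0.000547). The small proteoglycan Epyc (epiphycan) read 65.3, 59.6 and 98.2 with RSG, 187.6, 286 and 264.2 with DMSO at 24 hrs and 120.3, 119.2 and 162.1 with DMSO at 1 hr (3.33-fold lower, log2 -1.74 ± 0.18 SE, adjusted p = 1.01e-07). Mgp, the matrix Gla protein that holds back calcification, read 96.2, 130.6 and 184 with RSG, 295.5, 416 and 511.2 with DMSO at 24 hrs and 108.7, 131.6 and 73.9 with DMSO at 1 hr (3.01-fold lower, log2 -1.59 ± 0.19 SE, adjusted p = 7.96e-07). For these genes the RSG and DMSO arrays of 24 hrs did not overlap, which their choice required. Chst12, a chondroitin sulfotransferase, was 3.1-fold lower (log2 -1.63 ± 0.18 SE, adjusted p = 1.31e-07).

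Of 18 collagen genes tested, 7 were lower with RSG and none was higher, with a median log2 change of -0.31 over the list and -0.07 over all genes. Col1a1, the main chain of type I collagen, read 515.2, 502.5 and 893.2 with RSG, 1667, 1119 and 1196 with DMSO at 24 hrs and 1058, 834.3 and 583.9 with DMSO at 1 hr, and the groups of 24 hrs did not overlap (2.13-fold lower, log2 -1.09 ± 0.22 SE, adjusted p = 0.000854). Its partner chain Col1a2 showed a smaller fall with tight replicates, at 2350, 2506 and 2393 with RSG and 3964, 3849 and 3825 with DMSO at 24 hrs (1.61-fold lower, log2 -0.68 ± 0.12 SE, adjusted p = 0.00022). The count of collagens that fell dropped to 3 with RSG replicate 1 left out and to 4 with DMSO replicate 1 or the block left out. It was 11 after quantile normalization or with the block set within each time. The second probe set of Col1a1 did not pass. Among 17 collagen-processing genes 5 fell and 3 rose. Those that fell included Pcolce, which helps to trim procollagen (1.83-fold, log2 -0.87 ± 0.11 SE, adjusted p = 2.7e-06), and its relative Pcolce2 (1.82-fold, log2 -0.86 ± 0.17 SE, adjusted p = 0.000525). Those that rose were the prolyl 4-hydroxylase subunits P4ha1 and P4ha2 and the lysyl hydroxylase Plod1, enzymes that modify collagen chains with molecular oxygen (P4ha2 1.9-fold, log2 0.92 ± 0.15 SE, adjusted p = 5.84e-05). That count was 1 when DMSO replicate 2, RSG replicate 2 or the block was left out, or when only the 6 arrays were fitted.

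Matrix glycoproteins and proteoglycans gave 11 falls and 3 rises among 40 genes tested (median log2 -0.44). Nid2 (nidogen-2), a basement membrane linker, read 73.3, 65.5 and 91.6 with RSG, 279.6, 178.6 and 124.6 with DMSO at 24 hrs and 89.8, 88.4 and 73.4 with DMSO at 1 hr (2.42-fold lower, log2 -1.27 ± 0.22 SE, adjusted p = 0.000159). Tgfbi, a TGF-beta induced adhesion protein, was 2.17-fold lower (log2 -1.12 ± 0.17 SE, adjusted p = 3.56e-05), and the leucine-rich proteoglycan Ogn was 2-fold lower (log2 -0.999 ± 0.203 SE, adjusted p = 0.000903). The number of falls was 7 without RSG replicate 1, and 5 without the block. The 3 rises (Smoc1, Prelp and Nid1) were weak. None passed without the block, without DMSO replicate 3 or without RSG replicate 3, and 1 passed with only the 6 arrays fitted or without DMSO replicate 1, DMSO replicate 2 or RSG replicate 1. Of 27 matrix proteases and inhibitors 9 fell and 1, Adam12, rose (1.92-fold, log2 0.94 ± 0.12 SE, adjusted p = 2.52e-06), and leaving out DMSO replicate 2 gave 5 falls. Among 28 contractile and cytoskeletal genes 10 fell, with the actin cross-linker Flna (1.86-fold, log2 -0.897 ± 0.15 SE, adjusted p = 0.000121) and the focal adhesion proteins Csrp1 (1.83-fold, log2 -0.87 ± 0.19 SE, adjusted p = 0.00168) and Zyx (1.64-fold, log2 -0.72 ± 0.11 SE, adjusted p = 4.67e-05) leading those measured in both groups. Only the LIM protein Csrp2 rose (1.93-fold, log2 0.95 ± 0.084 SE, adjusted p = 3.56e-09). The falls numbered 6 once DMSO replicate 3, RSG replicate 1 or the block was left out.

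The levels of DMSO cells at 1 hr differed between these lists. The comparisons with 1 hr share the 24 hr arrays with the main comparison, so their counts are given side by side and are not separate evidence. For the matrix glycoproteins, 12 genes were higher and 4 lower in DMSO cells at 24 hrs than at 1 hr, while 2 were higher and 2 lower in RSG cells at 24 hrs than in DMSO cells at 1 hr. Over all genes these shares were 10.4% higher and 7.9% lower for DMSO (9.38% and 7.57% of probe sets), and 5.12% higher and 5.8% lower for RSG (4.51% and 5.48% of probe sets). The contractile genes had another pattern. In DMSO cells 1 was higher at 24 hrs than at 1 hr and 5 were lower, and 0 were higher and 13 lower in RSG cells at 24 hrs than in DMSO cells at 1 hr. For Zyx the means were 182 with RSG, 299 with DMSO at 24 hrs and 345 with DMSO at 1 hr.

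Several markers of precursor cells and fibroblasts fell. Pdgfrb, the PDGF receptor beta chain that marks preadipocytes, fibroblasts and pericytes, read 80, 72 and 51.2 with RSG, 185.3, 194.1 and 149.2 with DMSO at 24 hrs and 73.5, 87 and 61.5 with DMSO at 1 hr (2.63-fold lower with RSG, log2 -1.4 ± 0.19 SE, adjusted p = 5.92e-06). Of 16 such markers tested 9 fell and none rose (median log2 -0.62), among them Dpt (dermatopontin, 2.15-fold, log2 -1.1 ± 0.15 SE, adjusted p = 8.03e-06). Of the 9, Col1a1, Col1a2, Lum and Postn also belong to the matrix lists above. The summed signal of the 19 markers with a probe set was 13420 to 14640 on the RSG arrays, 18930 to 21410 on the DMSO arrays at 24 hrs and 12490 to 16640 on the DMSO arrays at 1 hr. Fap and Tcf21 were absent on all 6 arrays of 24 hrs. In a bulk sample fewer cells of a type and less RNA per cell cannot be told apart, and the part of these cells in the falls was not tested. Of the markers of smooth muscle, skeletal muscle, bone and cartilage, leukocytes and endothelium, at most 9 of a list reached the presence level on any of the 6 arrays. Defining genes such as Myocd, Myod1, Ibsp, Ptprc and Pecam1 stayed under it on all 6. Of 9 bone and cartilage markers tested, at 1 probe set each, none passed (median log2 -0.57), while over their 13 probe sets 1 was raised and 1 lowered. The sums over the 16 with a probe set were 241 to 317 with RSG, 312 to 400.3 with DMSO at 24 hrs and 246 to 384 with DMSO at 1 hr. Smooth muscle markers summed to 275 to 374 with RSG, 345 to 405 with DMSO at 24 hrs and 386 to 514 with DMSO at 1 hr. Skeletal muscle markers summed to 211 to 334 with RSG, 248 to 590.2 with DMSO at 24 hrs and 483 to 862 with DMSO at 1 hr. Smooth muscle actin, Acta2, read 57.4, 88.5 and 120.7 with RSG and 116.9, 92.2 and 178 with DMSO at 24 hrs, and the muscle oxygen carrier myoglobin, Mb, 30.1, 55.8 and 137.1 with RSG and 73.6, 78.3 and 374.8 with DMSO. Both passed as lowered with the block (Acta2 log2 -0.55, adjusted p = 0.0145, and Mb log2 -1.08, adjusted p = 0.0062) although their groups overlap. Both calls were lost without the block (0.329 and 0.356) and without DMSO replicate 3 or RSG replicate 1 (0.0722 to 0.156), that of Acta2 also with only the 6 arrays (0.134) or without DMSO replicate 1 (0.0922), and the second probe set of Mb did not pass. The part of muscle or bone lineage cells in the falls was likewise not tested.

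Some secreted immune and acute phase genes fell, and most of both lists did not pass. Ccl9, a CC chemokine, read 161.9, 190.5 and 300.1 with RSG, 459.2, 697.5 and 737.8 with DMSO at 24 hrs and 216.1, 197 and 304.5 with DMSO at 1 hr (2.94-fold lower, log2 -1.56 ± 0.15 SE, adjusted p = 1.77e-08). Ccl2 (MCP-1), which draws monocytes into fat, read 896.7, 978.8 and 1137 with RSG, 1653, 1800 and 1990 with DMSO at 24 hrs and 569.6, 642.2 and 323.4 with DMSO at 1 hr. Its groups of 24 hrs were apart (1.81-fold lower, log2 -0.86 ± 0.22 SE, adjusted p = 0.00892), yet RSG cells stood above DMSO cells at 1 hr (log2 1.02, adjusted p = 0.00208). The call for Ccl2 was lost without DMSO replicate 3, RSG replicate 1 or RSG replicate 2 (adjusted p = 0.0505 to 0.0822). Of 29 chemokines and cytokines 6 fell and none rose, and the falls were 3 with DMSO replicate 3, RSG replicate 1 or RSG replicate 2 left out. Cxcl9, an interferon-induced chemokine, was under the presence level on all 3 RSG arrays (7.2, 9.3 and 4.5), against 39.3, 31.9 and 30.6 with DMSO at 24 hrs, which makes it at least 1.7-fold lower (adjusted p = 0.00637).

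Among 16 acute phase and complement genes, 4 fell and none rose. Orm1, the acute phase glycoprotein orosomucoid, read 119.5, 118.7 and 79.6 with RSG, 365.3, 241.6 and 174 with DMSO at 24 hrs and 152, 141.1 and 102.4 with DMSO at 1 hr (2.39-fold lower, log2 -1.25 ± 0.16 SE, adjusted p = 2.06e-06). The protease inhibitor Serpina3n read 225.1, 247.8 and 322.4 with RSG, 760.5, 469.3 and 727 with DMSO at 24 hrs and 117.5, 200.4 and 61.4 with DMSO at 1 hr (2.43-fold lower, log2 -1.28 ± 0.35 SE, adjusted p = 0.014). Its call was lost without the block (adjusted p = 0.052) and without DMSO replicate 1, DMSO replicate 3, RSG replicate 1 or RSG replicate 2 (0.0593 to 0.116). Counts in this list moved widely, to 2 without DMSO replicate 3 or RSG replicate 1, 1 without the block, 8 when only the 6 arrays were fitted and 9 with the block set within each time. DMSO cells themselves were higher at 24 hrs than at 1 hr in 8 of the 16 genes and lower in 1. Wfdc21, a secreted whey acidic protein relative, illustrates this, with 962.5, 1171 and 523 in RSG cells, 2619, 2389 and 2320 in DMSO cells at 24 hrs and 477.3, 589.8 and 300.9 in DMSO cells at 1 hr (2.91-fold lower with RSG, log2 -1.54 ± 0.19 SE, adjusted p = 1.33e-06).

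Of 26 interferon response genes 5 fell and none rose, and 3 fell without the block. Gbp2, a guanylate binding protein, was 2.07-fold lower (log2 -1.05 ± 0.16 SE, adjusted p = 3.74e-05), and Psmb9, a subunit of the immunoproteasome, was 1.9-fold lower (log2 -0.92 ± 0.16 SE, adjusted p = 0.000163). The antimicrobial genes S100a8 (2.7-fold lower, log2 -1.43 ± 0.28 SE, adjusted p = 0.000548) and Camp fell at low signals. Camp (cathelicidin) was under the presence level on all RSG arrays and at least 2.04-fold lower (adjusted p = 0.0391). Its call was lost without the block (0.0784), after quantile normalization (0.0592) and without DMSO replicate 1, DMSO replicate 3, RSG replicate 1 or RSG replicate 2 (0.0804 to 0.191). Of the 7 leukocyte markers tested none passed in either direction, and the sums over 13 markers were 473 to 638 with RSG and 468 to 593 with DMSO at 24 hrs.

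Further falls were in growth factors, lipid carriers and receptors. Apoe, the lipoprotein ligand that adipocytes secrete, read 485.7, 435.6 and 735 with RSG, 1609, 1201 and 1956 with DMSO at 24 hrs and 419.9, 336.6 and 457 with DMSO at 1 hr (2.9-fold lower, log2 -1.53 ± 0.18 SE, adjusted p = 7.44e-07). Lrp1, a receptor that takes up Apoe-bearing particles, was 1.87-fold lower (log2 -0.903 ± 0.21 SE, adjusted p = 0.00379), but without the block its adjusted p was 0.101. Gas6, the ligand of the TAM receptor kinases, had closely spaced replicates, with 89.9, 88.4 and 89.9 with RSG and 246, 226.6 and 244.2 with DMSO at 24 hrs (2.67-fold lower, log2 -1.42 ± 0.17 SE, adjusted p = 8.94e-07). At 1 hr DMSO cells read 148, 112.7 and 134.9, between the groups of 24 hrs. Igfbp7, which binds insulin-like growth factors, was 2.32-fold lower (log2 -1.22 ± 0.24 SE, adjusted p = 0.000617) and Inhbb, the activin beta B chain made by fat cells, 1.75-fold lower (log2 -0.81 ± 0.17 SE, adjusted p = 0.00156). The vessel factor Angpt1 (2.74-fold, log2 -1.46 ± 0.48 SE, adjusted p = 0.044) and the growth factor Tgfb3 (5.07-fold, log2 -2.34 ± 0.699 SE, adjusted p = 0.0235) were weaker. Both lost the call without the block (Angpt1 0.235, Tgfb3 0.0522). Both also lost it without DMSO replicate 1, DMSO replicate 2, RSG replicate 1 or RSG replicate 2, and Angpt1 without RSG replicate 3 as well, at 0.0755 to 0.239. Angpt1 further lost it without the filter, without the intensity trend and after quantile normalization (0.0588 to 0.0719).

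The remaining large falls were in genes of mixed function. Ralgds, an exchange factor that links Ras to Ral, read 142, 175.5 and 214.3 with RSG, 525, 493.1 and 569.2 with DMSO at 24 hrs and 207.7, 220.7 and 256.7 with DMSO at 1 hr (3.02-fold lower, log2 -1.59 ± 0.16 SE, adjusted p = 4.19e-08). Similar falls were seen in Tns2 (tensin-2, 4.42-fold), the ferrireductase Steap3 (3.01-fold), the galectin Lgals2 (2.99-fold), Apcdd1 (a Wnt inhibitor, 2.9-fold), the lipid transporter Abca8a (2.78-fold) and Sncg (gamma-synuclein, known from adipocytes and neurons, 2.55-fold), with adjusted p of 0.000574, 5.84e-05, 3.74e-06, 0.000187, 6.29e-06 and 2.4e-06. Hlcs, Dock9, Cpne2 and Tmem176a complete the 25. Hlcs lost its call without DMSO replicate 3 (0.0598), Dock9 without DMSO replicate 2 (0.0952), and Cpne2 and Tmem176a under 4 alternatives each (0.0519 to 0.245). Slc25a24, a mitochondrial carrier, Carns1 and Osbpl5 were measured only in DMSO cells at 24 hrs and were at least 2.01-fold, 1.93-fold and 1.95-fold lower with RSG (0.000133, 0.00588 and 0.00163, adjusted).

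Regulators of adipocyte transcription moved both ways. Of 45 such genes 5 fell, 6 rose and 34 did not pass, where over all genes 7.9% fell and 5.85% rose. Klf15, a Kruppel-like factor that promotes adipocyte differentiation, read 78.9, 95.5 and 65 with RSG, 152.5, 157.8 and 182.8 with DMSO at 24 hrs and 63.7, 27.9 and 33.1 with DMSO at 1 hr (2.08-fold lower, log2 -1.06 ± 0.22 SE, adjusted p = 0.00139). Klf2, which restrains adipogenesis, read 51.6, 43.5 and 59 with RSG and 105.2, 82.1 and 95.7 with DMSO at 24 hrs, far under the 243, 275.6 and 250.3 of DMSO cells at 1 hr (1.84-fold lower, log2 -0.88 ± 0.18 SE, adjusted p = 0.000773). The immediate early receptor Nr4a1 had the same order, with 68.4, 53.3 and 63 in RSG cells, 109.7, 98.5 and 113.4 in DMSO cells at 24 hrs and 594.7, 522.6 and 529.5 in DMSO cells at 1 hr (1.75-fold lower, log2 -0.81 ± 0.17 SE, adjusted p = 0.00179). Ppara, the PPAR that drives fatty acid oxidation, was the clearest rise of the list. It read 61.7, 71.7 and 61.3 with RSG, against 2.7, 4.5 and 12.5 with DMSO at 24 hrs and 6.7, 29.5 and 10.3 with DMSO at 1 hr. DMSO arrays at 24 hrs were all under the presence level, so the rise was at least 3.25-fold (adjusted p = 5.84e-05). The other falls of the list were Rxra, the partner of the PPARs, and Srebf1. The coactivator Ppargc1b rose 2.15-fold (log2 1.1 ± 0.23 SE, adjusted p = 0.00104), while its relative Ppargc1a, at 24.6 ± 3.48 with RSG and 22.7 ± 1.51 with DMSO, did not pass (log2 0.11, 95% confidence interval -0.41 to 0.63). With DMSO replicate 3, RSG replicate 2 or RSG replicate 3 left out 3 genes of this list rose, and 2 when only the 6 arrays were fitted. The 5 falls were 8 with the block set within each time.

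**Figure D2:**
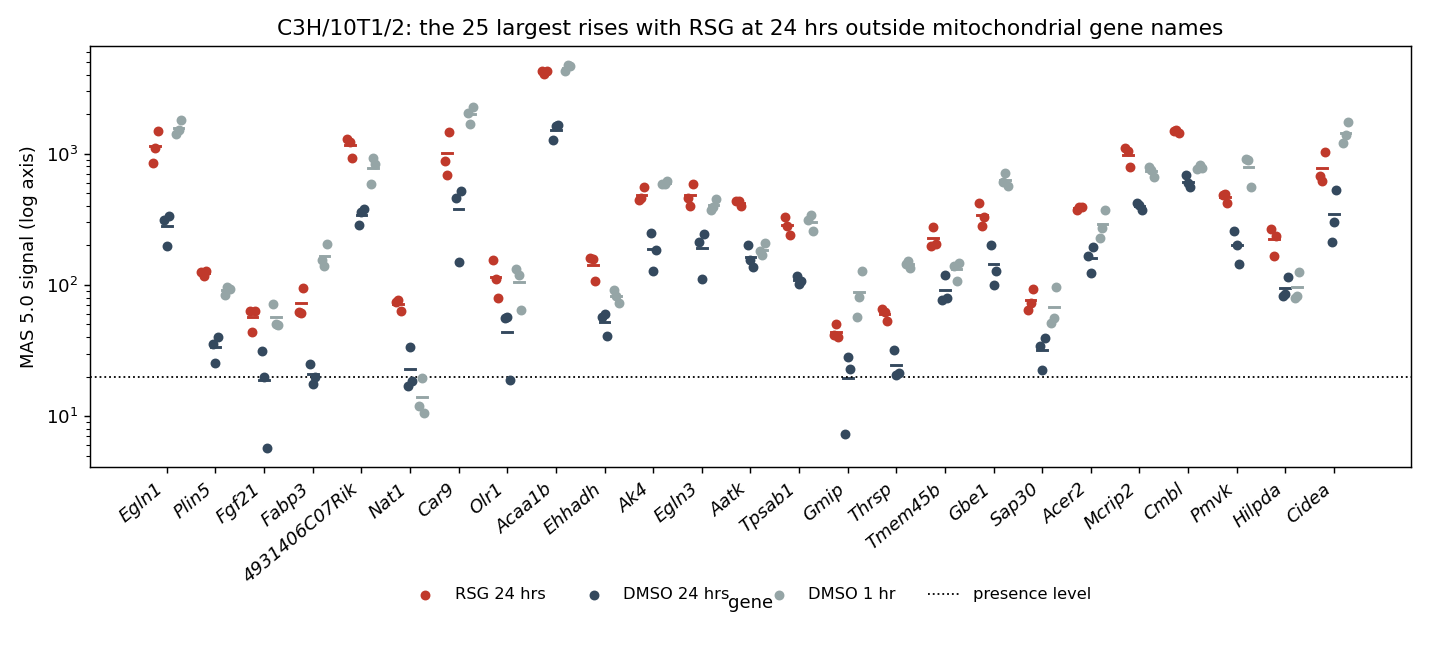
Signal of each array (points, log axis) and group means (short lines), with the presence level dotted, for the 25 genes outside mitochondrial names with the largest rises, with RSG at 24 hrs, DMSO at 24 hrs and DMSO at 1 hr from left to right for each gene. Egln1 averages 1150 with RSG, 282 with DMSO at 24 hrs and 1580 with DMSO at 1 hr, while Nat1 averages 71.3 with RSG, 23 with DMSO at 24 hrs and 14.1 with DMSO at 1 hr.

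The largest rise among genes outside mitochondrial names that were measured in both groups was Egln1, a prolyl hydroxylase (PHD2) that senses oxygen by marking HIF-1alpha for destruction. It read 856.8, 1103 and 1488 in RSG cells, 310.7, 196.7 and 337.6 in DMSO cells at 24 hrs and 1404, 1529 and 1807 in DMSO cells at 1 hr. The groups of 24 hrs did not overlap (4.08-fold higher with RSG, log2 2.03 ± 0.29 SE, adjusted p = 1.09e-05), and its other probe set also rose. Egln3 (PHD3), a related hydroxylase, read 464, 400.8 and 590 with RSG, 213.6, 110.6 and 246.8 with DMSO at 24 hrs and 369.7, 396.4 and 451.6 with DMSO at 1 hr (2.66-fold, log2 1.41 ± 0.22 SE, adjusted p = 3.56e-05). Car9, a surface carbonic anhydrase, read 886.3, 693.5 and 1464 with RSG, 462.2, 150.9 and 524.4 with DMSO at 24 hrs and 2029, 1698 and 2256 with DMSO at 1 hr (2.91-fold, log2 1.54 ± 0.26 SE, adjusted p = 0.000101). Ak4, an adenylate kinase of the mitochondrial matrix that the name pattern does not catch, rose 2.69-fold (log2 1.43 ± 0.16 SE, adjusted p = 4.46e-07). Ero1a, the oxidase that forms disulfide bonds in the endoplasmic reticulum, read 2275, 1856 and 2188 with RSG, 1219, 678.2 and 953.5 with DMSO at 24 hrs and 3793, 3590 and 4789 with DMSO at 1 hr (2.27-fold, log2 1.18 ± 0.14 SE, adjusted p = 6.2e-07).

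These 5 genes are known as targets of HIF-1, the transcription factor stabilized when oxygen is low, through the ACGTG core of its response element. A list of such targets was drawn up after these values had been seen, so its counts are a description and carry no test. Of its 36 members tested, 24 were raised by RSG at 24 hrs and none was lowered, with a median log2 change of 0.66. Between 20 and 24 rose with any 1 of the 6 arrays left out, and 20 without the block. Against DMSO cells at 1 hr, 6 of the 36 were higher and 10 lower in RSG cells at 24 hrs, and 4 were higher and 24 lower in DMSO cells at 24 hrs. The lactate dehydrogenase gene Ldha rose (1.46-fold, log2 0.55 ± 0.12 SE, adjusted p = 0.00135), while the glucose transporter Slc2a1 (534 ± 82.4 with RSG, 407 ± 88.9 with DMSO) and Pgk1 (log2 0.047, 95% confidence interval -0.23 to 0.33) did not pass.

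**Figure D3:**
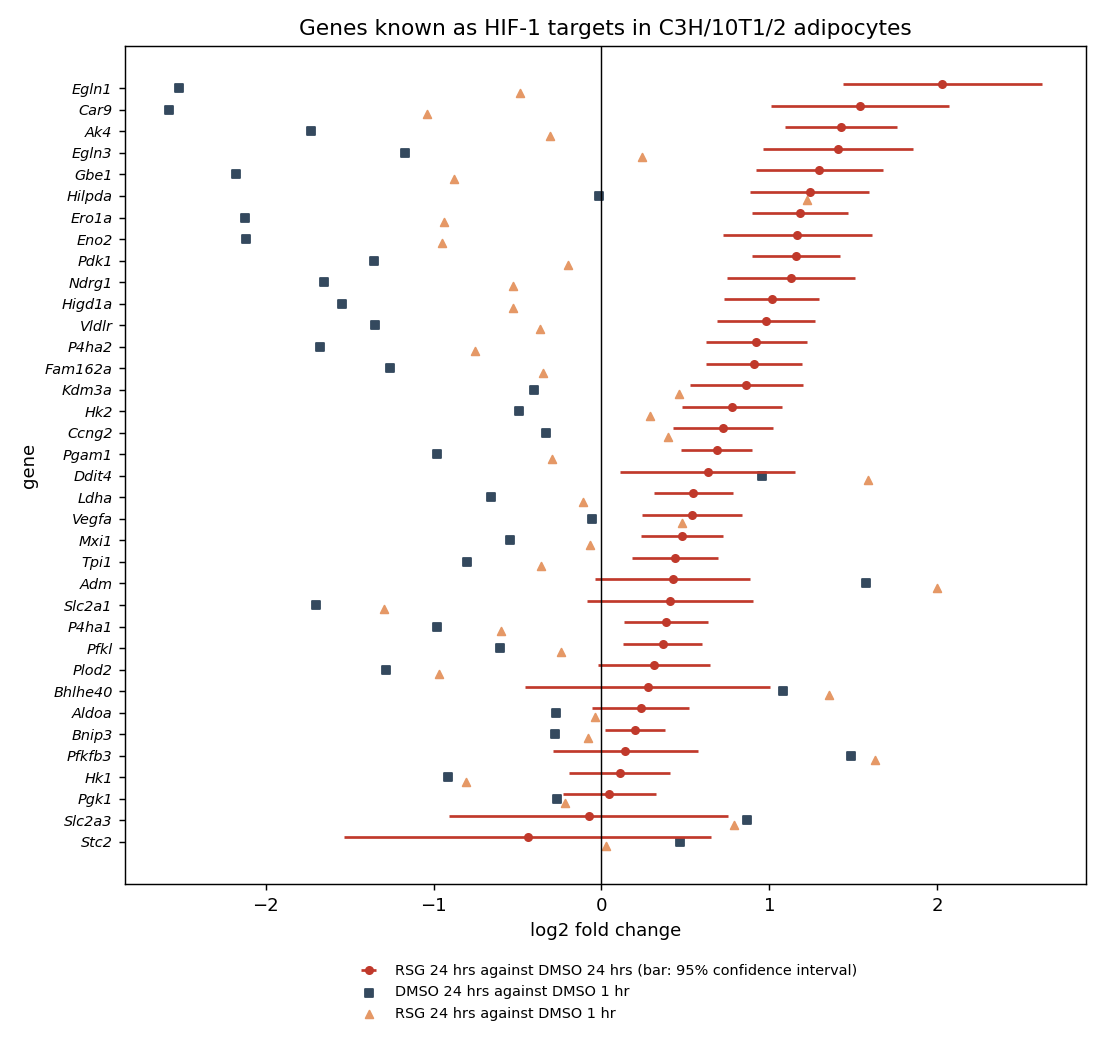
Log2 fold changes of the 36 tested genes known as HIF-1 targets, a list drawn up after the values were seen, for RSG against DMSO at 24 hrs (circles with 95% confidence intervals), DMSO at 24 hrs against 1 hr (squares) and RSG at 24 hrs against DMSO at 1 hr (triangles). The 24 raised genes lie to the right of 0 in the first comparison, led by Egln1 at 2.03, and the 3 comparisons share arrays.

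Stretches upstream of the start sites of 4 of these genes are shown because they hold that core. They are RefSeq promoter sequences of build GRCm38.p6, read 5' to 3' on the gene's strand, with ACGTG or its reverse complement CACGT in capitals. The Egln1 stretch is at chr8:124949260-124949379 on the minus strand, Egln3 at chr12:54204041-54204124 on the minus strand, Car9 at chr4:43506951-43507025 on the plus strand and Ero1a at chr14:45318573-45318692 on the minus strand, and each lies upstream of the start site.
Egln1: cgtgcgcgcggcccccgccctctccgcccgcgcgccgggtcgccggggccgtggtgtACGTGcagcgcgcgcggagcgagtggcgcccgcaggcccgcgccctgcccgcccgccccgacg
Egln3: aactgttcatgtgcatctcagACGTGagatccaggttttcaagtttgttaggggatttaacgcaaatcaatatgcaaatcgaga
Car9: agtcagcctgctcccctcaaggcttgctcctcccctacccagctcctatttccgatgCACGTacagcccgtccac
Ero1a: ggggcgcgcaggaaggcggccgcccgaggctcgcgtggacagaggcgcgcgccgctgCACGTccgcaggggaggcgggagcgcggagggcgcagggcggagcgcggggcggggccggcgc
Of the 23 raised list members with a promoter of 300 bases in the RefSeq table, 15 (65.2%) held ACGTG on either strand. Among all tested genes with a promoter the share was 29.1% (2223 of 7630), among raised genes without a mitochondrial name 34.8% (115 of 330), and among lowered genes 26.8% (159 of 594). This motif was added after the values were seen, and a match is not a site. The list holds genes known as targets through this core, so its share of ACGTG cannot be told apart from the choice of the list. The share among list members that were not raised was not determined.

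Of 32 genes of glucose uptake, glycolysis and glycogen 15 were raised and none lowered (median log2 0.35), 17 did not pass, and 12 to 16 were raised when any 1 array was left out. Gbe1, Eno2, Hk2, Pgam1, Ldha, Tpi1 and Pfkl of the 15 are also among the raised HIF-1 targets. Gbe1, the branching enzyme, read 418.8, 283.2 and 329.9 with RSG, 203.3, 100.4 and 128.6 with DMSO at 24 hrs and 605.4, 710.8 and 564.8 with DMSO at 1 hr (2.46-fold, log2 1.3 ± 0.18 SE, adjusted p = 1.03e-05). Gyg, the glycogenin primer, rose 2.05-fold (log2 1.03 ± 0.15 SE, adjusted p = 8.74e-06). The enolase Eno2 rose 2.25-fold (log2 1.17 ± 0.22 SE, adjusted p = 0.000375), with an adjusted p of 0.052 without the block. Gys2, the liver form of glycogen synthase, rose at low signals, with means of 50.2 in RSG cells, 9.27 in DMSO cells at 24 hrs and 23.5 in DMSO cells at 1 hr. Set against DMSO cells at 1 hr, 5 of the 32 were higher and 9 lower in RSG cells at 24 hrs, while 3 were higher and 17 lower in DMSO cells at 24 hrs.

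**Figure D4:**
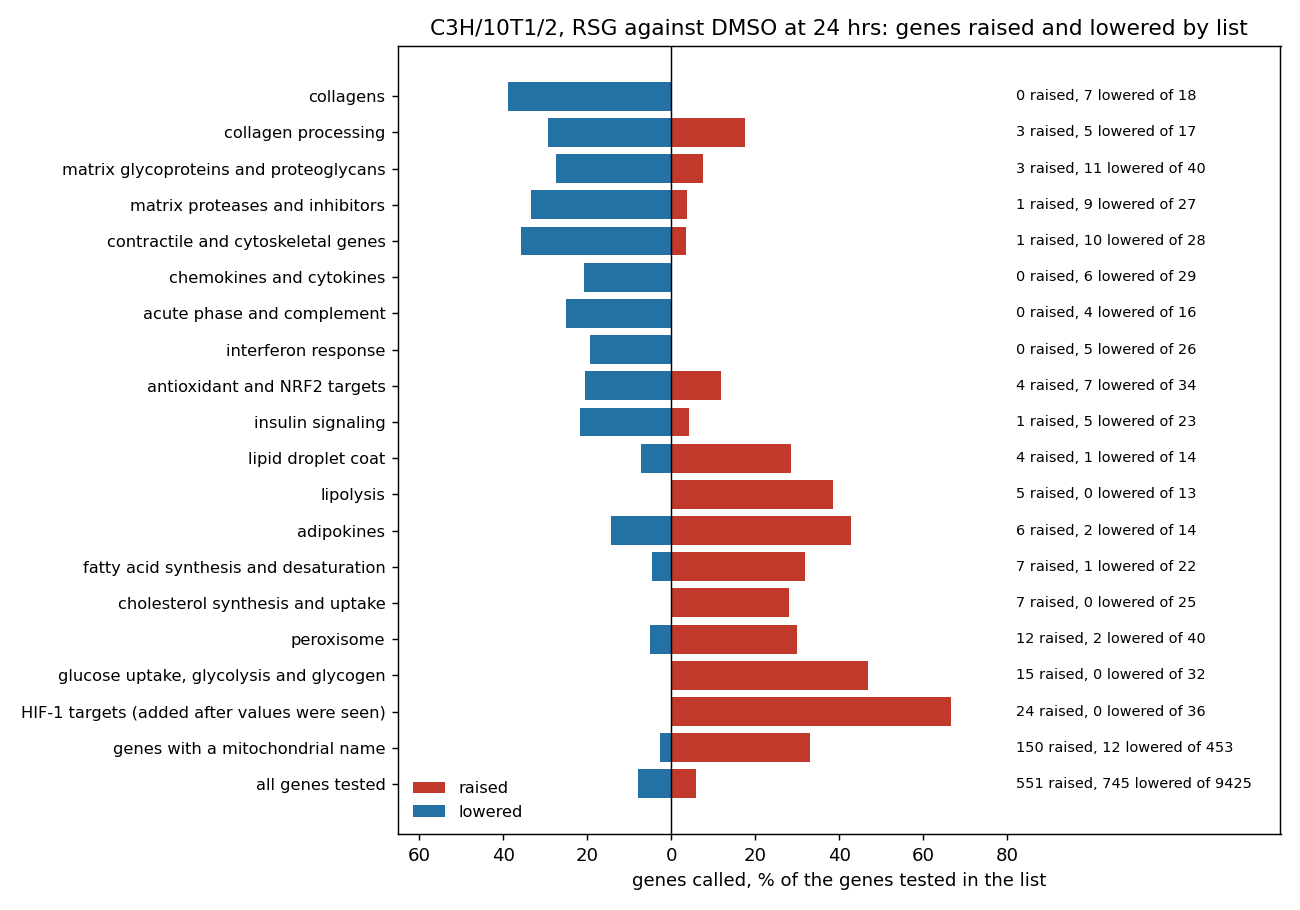
Genes raised (right) and lowered (left) with RSG at 24 hrs as a percentage of the genes tested in each list, with the counts at the right. In the HIF-1 list 24 of 36 genes were raised and in the collagen list 7 of 18 were lowered, beside 551 raised and 745 lowered of 9425 over all genes.

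Several genes of the lipid droplet and of fatty acid handling rose. Plin5, a droplet coat protein that ties droplets to mitochondria, read 126, 117.8 and 128.4 with RSG, 35.5, 25.6 and 39.8 with DMSO at 24 hrs and 84.3, 96 and 93.7 with DMSO at 1 hr (3.75-fold, log2 1.91 ± 0.21 SE, adjusted p = 1.75e-07). A stretch upstream of its start site, at chr17:56117656-56117775 of GRCm38.p6 on the minus strand, is shown for the AGGTCA motif that nuclear receptors read, in capitals.
Plin5: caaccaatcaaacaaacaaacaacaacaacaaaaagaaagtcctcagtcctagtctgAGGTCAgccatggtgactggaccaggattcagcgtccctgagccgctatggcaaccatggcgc
AGGTCA was found on either strand in 11.8% (39 of 330) of the promoters of raised genes without a mitochondrial name and in 15.3% (1166 of 7630) of those of all tested genes, and in 18.9% (112 of 594) of those of lowered genes and in 29.2% (38 of 130) for raised genes with a mitochondrial name. A direct repeat of AGGTCA with 1 base between was in 3 of the 7630.

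Fabp3, the heart-type fatty acid binding protein, read 62.4, 60.7 and 94 with RSG, 25.2, 17.7 and 20 with DMSO at 24 hrs and 154.9, 138.4 and 205.2 with DMSO at 1 hr (3.42-fold, log2 1.77 ± 0.19 SE, adjusted p = 1.42e-07). Cidea, a droplet fusion protein of brown fat, read 681.3, 615.7 and 1028 with RSG, 213.5, 300.3 and 526.8 with DMSO at 24 hrs and 1204, 1398 and 1752 with DMSO at 1 hr (2.34-fold, log2 1.23 ± 0.13 SE, adjusted p = 1.41e-07). In both genes RSG cells were above DMSO cells of the same time and below DMSO cells at 1 hr (log2 -1.21 and -0.92, 5.12e-05 and 1.21e-05 adjusted). Hilpda, an inhibitor of lipolysis, differed from them in that DMSO cells had nearly the same signal at both times, with 268.3, 167.3 and 237.3 in RSG cells, 82.3, 86 and 114.3 in DMSO cells at 24 hrs and 80.2, 82.9 and 125.8 in DMSO cells at 1 hr (2.36-fold, log2 1.24 ± 0.17 SE, adjusted p = 8.03e-06). Brown adipocyte markers as a list gave 5 rises among 7 tested (median log2 1.06) and no fall. The 5 were Fabp3, Cidea, Elovl3, Cox7a1 and Cox8b, of which Fabp3, Cidea and Elovl3 are also counted in other lists here. Of these 5, 4, all but Cox8b, were lower in DMSO cells at 24 hrs than at 1 hr. The defining gene Ucp1 was absent on all 6 arrays. Cav1, a caveolar protein, was the only droplet coat gene of 14 that fell (1.54-fold, log2 -0.63 ± 0.11 SE, adjusted p = 0.000239), beside 4 that rose.

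Of 13 lipolysis genes 5 rose, among them the lysosomal lipase Lipa (1.64-fold, log2 0.71 ± 0.15 SE, adjusted p = 0.00138) and the glycerol channel Aqp7 (1.69-fold, log2 0.75 ± 0.23 SE, adjusted p = 0.0275). Aqp7 lost its call without the block (0.0784) and with any array but DMSO replicate 2 left out (0.0558 to 0.148). The count of 5 was 1 with DMSO replicate 3 left out, 2 with RSG replicate 1 left out, and 3 with DMSO replicate 1, DMSO replicate 2, RSG replicate 2 or the block left out. The cytosolic lipases Lipe (2877 ± 622 with RSG, 2577 ± 110.0 with DMSO) and Pnpla2 (4497 ± 579 with RSG, 4031 ± 461 with DMSO) did not pass. Of 15 genes of glycerol supply and triglyceride assembly 4 rose and 2, Plpp1 and Dgat2, fell. Plpp1 lost its call without RSG replicate 1 (0.0509). Among the rises Agpat3, an acyltransferase, was 1.93-fold higher (log2 0.95 ± 0.082 SE, adjusted p = 2.35e-09). Of 14 genes of fatty acid uptake and binding 3 rose and 2, Lrp1 and Acsl5, fell (Acsl5 1.64-fold, log2 -0.72 ± 0.13 SE, adjusted p = 0.000244).

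Peroxisomal genes rose in 12 of 40 cases and fell in 2. Acaa1b, the thiolase of peroxisomal beta-oxidation, had the highest signals among the large rises, with 4252, 4024 and 4304 in RSG cells, 1268, 1634 and 1657 in DMSO cells at 24 hrs and 4258, 4743 and 4634 in DMSO cells at 1 hr (2.78-fold, log2 1.47 ± 0.103 SE, adjusted p = 2.45e-11). RSG cells held the level of DMSO cells at 1 hr (log2 -0.12, adjusted p = 0.575). Ehhadh, the bifunctional enzyme of the same pathway, read 161.8, 157.5 and 107.7 with RSG, 57.2, 59.8 and 40.6 with DMSO at 24 hrs and 92, 83.1 and 72.9 with DMSO at 1 hr, so RSG cells were the highest of the 3 groups (2.7-fold over DMSO at 24 hrs, log2 1.44 ± 0.17 SE, adjusted p = 8.84e-07). Ephx2, the soluble epoxide hydrolase, had that order too (2.02-fold, log2 1.01 ± 0.11 SE, adjusted p = 1.62e-07). The falls were Abcd2 (1.71-fold, log2 -0.78 ± 0.2 SE, adjusted p = 0.0084) and Far1 (1.59-fold, log2 -0.67 ± 0.18 SE, adjusted p = 0.0101). Abcd2 lost its call without DMSO replicate 2 (0.058), and Far1 without the block (0.0502), without DMSO replicate 2 (0.0766) and without RSG replicate 1 (0.0599).

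Of 25 cholesterol synthesis genes 7 rose, none fell and 18 did not pass, and 4 rose without the block. Pmvk, phosphomevalonate kinase, read 482.7, 493.6 and 423.3 with RSG, 259.3, 201.4 and 143.5 with DMSO at 24 hrs and 914, 899.3 and 553.4 with DMSO at 1 hr (2.38-fold, log2 1.25 ± 0.16 SE, adjusted p = 2.39e-06). Lss, which closes the sterol rings, rose 2.19-fold (log2 1.13 ± 0.13 SE, adjusted p = 6.2e-07), and Sc5d, a late desaturase of the pathway, 1.78-fold (log2 0.83 ± 0.12 SE, adjusted p = 7.44e-06). Against DMSO cells at 1 hr, 2 of the 25 were higher and 9 lower in RSG cells at 24 hrs, and 2 were higher and 14 lower in DMSO cells at 24 hrs. Of 22 fatty acid synthesis and desaturation genes 7 rose, 1 fell and 14 did not pass. Thrsp (Spot 14) read 65.4, 61.8 and 53.3 with RSG, 31.9, 20.6 and 21.2 with DMSO at 24 hrs and 144, 151.4 and 135.7 with DMSO at 1 hr (2.49-fold, log2 1.32 ± 0.17 SE, adjusted p = 2.09e-06). The acetyl-CoA synthetase Acss2 read 574.2, 481 and 348.6 with RSG, 283.7, 199.6 and 170.3 with DMSO at 24 hrs and 781.8, 844.2 and 1053 with DMSO at 1 hr (2.15-fold, log2 1.11 ± 0.17 SE, adjusted p = 3.2e-05). The elongase Elovl3 rose 2.3-fold (log2 1.2 ± 0.25 SE, adjusted p = 0.00122). Srebf1, the factor that drives these enzymes, was 1.25-fold lower with RSG (log2 -0.32 ± 0.0996 SE, adjusted p = 0.0282), with an adjusted p of 0.052 without the block, 0.0666 with only the 6 arrays, and 0.0784 to 0.164 without DMSO replicate 1, DMSO replicate 3, RSG replicate 1 or RSG replicate 2. Fasn did not pass (log2 0.15, 95% confidence interval -0.23 to 0.52).

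Secreted factors of fat rose in 6 of 14 cases and fell in 2. Fgf21, a metabolic hormone, read 63.8, 43.6 and 63.4 with RSG, 31.2, 19.8 and 5.7 with DMSO at 24 hrs and 71.4, 50.4 and 49.6 with DMSO at 1 hr (3.69-fold, log2 1.88 ± 0.49 SE, adjusted p = 0.00929). Only 1 of the DMSO arrays at 24 hrs reached the presence level, and without DMSO replicate 3 the adjusted p was 0.134. Nampt, an enzyme of NAD synthesis that is also secreted, rose 1.66-fold (log2 0.73 ± 0.14 SE, adjusted p = 0.000324) and the growth factor Nrg4 1.61-fold (log2 0.69 ± 0.16 SE, adjusted p = 0.00354). Among antioxidant genes 4 rose and 7 fell of 34. Hmox1, heme oxygenase-1, read 1404, 933.2 and 1425 with RSG, 581.1, 450.9 and 819.7 with DMSO at 24 hrs and 3077, 2799 and 2843 with DMSO at 1 hr (2.06-fold, log2 1.04 ± 0.15 SE, adjusted p = 1.36e-05). The cytosolic glutathione transferases Gstt1, Gstm1, Gstm2 and Gstm5 fell, with Gstt1 2.05-fold lower (log2 -1.03 ± 0.17 SE, adjusted p = 8.29e-05) and Gstm2 1.57-fold lower (log2 -0.65 ± 0.14 SE, adjusted p = 0.00123). The microsomal relative Mgst3 rose (log2 0.45 ± 0.13 SE, adjusted p = 0.0235), a call lost without DMSO replicate 1, DMSO replicate 3, RSG replicate 1 or RSG replicate 3 (0.0575 to 0.121). The falls numbered 4 with DMSO replicate 2 left out and 3 without the block.

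A few rises had no counterpart among the lists. Cmbl, a hydrolase of the carboxymethylenebutenolidase family, had closely spaced replicates, with 1495, 1509 and 1449 in RSG cells, 683.2, 603.7 and 557.1 in DMSO cells at 24 hrs and 766.2, 823.9 and 773.6 in DMSO cells at 1 hr (2.42-fold, log2 1.28 ± 0.085 SE, adjusted p = 1.05e-11). The kinase Aatk read 433.3, 440.3 and 397.3 with RSG, 201.4, 154.8 and 137 with DMSO at 24 hrs and 181.2, 167.9 and 208.3 with DMSO at 1 hr (2.61-fold, log2 1.38 ± 0.15 SE, adjusted p = 1.59e-07). In these 2 genes and in Nat1, an arylamine acetyltransferase (3.24-fold, log2 1.69 ± 0.45 SE, adjusted p = 0.0101), RSG cells also stood above DMSO cells at 1 hr (log2 0.91, 1.19 and 2.39, 6.4e-09, 2.09e-06 and 0.000407 adjusted). Nat1 reached the presence level on 1 of the 3 DMSO arrays at 24 hrs and lost the call against them without RSG replicate 1 (0.0549). Tpsab1, a mast cell tryptase, rose 2.6-fold (log2 1.38 ± 0.15 SE, adjusted p = 1.16e-07) to the level of DMSO cells at 1 hr, at means of 284 with RSG, 109 with DMSO at 24 hrs and 304 with DMSO at 1 hr. The ceramidase Acer2, the Sin3 complex subunit Sap30, Mcrip2, Tmem45b and the uncharacterized 4931406C07Rik rose 2.43, 2.44, 2.42, 2.48 and 3.37-fold (adjusted p = 1.28e-07, 5.24e-05, 3.07e-09, 6.97e-05 and 5.87e-09). Olr1 (2.83-fold, log2 1.5 ± 0.36 SE, adjusted p = 0.00412) lost its call without DMSO replicate 3 (0.054). Gmip (2.6-fold, log2 1.38 ± 0.37 SE, adjusted p = 0.0107) lost it without the block (0.0554), with only the 6 arrays (0.0561), and with DMSO replicate 1 (0.124) or RSG replicate 1 (0.0689) left out.

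At 48 hrs 736 probe sets were higher and 785 lower with RSG than with DMSO (4.56% and 4.87%). The difference of the effects passed in 1 probe set (0.0062% of 16123), the MHC class I gene H2-Q10, which was not called at 24 hrs. It averaged 86.7 ± 17 with RSG and 85 ± 1.25 with DMSO at 24 hrs, beside 184 ± 63.1 with RSG and 53.5 ± 10.4 with DMSO at 48 hrs (log2 difference -1.74, adjusted p = 0.00793). The count was 0 without DMSO replicate 3 of 24 hrs, without DMSO replicate 2 or RSG replicate 1 of 48 hrs, and without the block, and no gene named above passed this test.

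Between cell lines the RSG effect at 24 hrs differed in 164 probe sets, 0.897% of the 18274 tested over both lines. It was higher in C3H/10T1/2 in 72 and lower in 92. Ndrg1, a stress-responsive gene that is also in the HIF-1 list, read 3533, 2592 and 4059 with RSG and 2318, 895 and 1720 with DMSO in C3H/10T1/2 cells (2.18-fold, log2 1.13 ± 0.19 SE, adjusted p = 8.31e-05). In 3T3-L1 cells it averaged 167 ± 45.6 with RSG and 228 ± 49 with DMSO, and the effects differed by 1.59 on the log2 scale (adjusted p = 0.000166). Thrsp also responded more in C3H/10T1/2 (log2 1.32 against 0.16 in 3T3-L1, difference 1.16, adjusted p = 0.00197). Acaa1b rose in both lines but less in C3H/10T1/2, from DMSO signals that were much higher there (log2 1.47 against 3.5, difference -2.03, adjusted p = 5.96e-12). Its DMSO mean was 1519 in C3H/10T1/2 and 42.2 in 3T3-L1.

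Among the genes that fell, Ccl9 (difference -1.07, adjusted p = 0.0103), Wfdc21 (-1.01, adjusted p = 0.0211), Gbp2 (-0.88, adjusted p = 0.0199) and Psmb9 (-1.12, adjusted p = 0.0364) had a more negative log2 effect in C3H/10T1/2 than in 3T3-L1. Timeless, a gene of replication forks, read 86.7, 131.2 and 129.6 with RSG and 228.8, 230.4 and 223 with DMSO in C3H/10T1/2 (log2 -0.998), against a log2 change of -3.66 in 3T3-L1 (difference 2.66, adjusted p = 2.75e-06). The 3T3-L1 RSG arrays averaged 5.93, under the presence level, and with all signals floored at that level the difference was 0.91 and did not pass (adjusted p = 0.171). Its second probe set did not pass in C3H/10T1/2. The counts between lines depended on the fit: without the block 20 probe sets were higher and 27 lower. Among the C3H/10T1/2 arrays, leaving out DMSO replicate 3 gave 44 higher and 49 lower, and leaving out DMSO replicate 1 gave 48 and 51. Among the 3T3-L1 arrays, the counts were 49 and 47 without DMSO replicate 2, 43 and 47 without DMSO replicate 3, and 50 and 54 without RSG replicate 1.

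**Figure D5:**
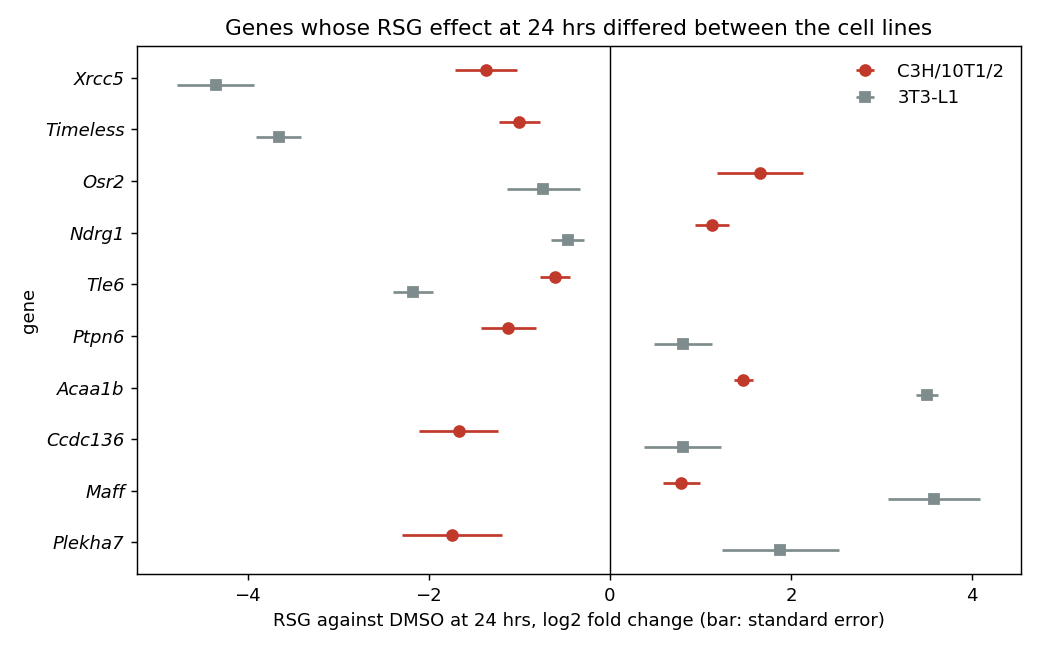
RSG effect at 24 hrs (log2 fold change with standard error) in C3H/10T1/2 (circles) and 3T3-L1 (squares) for the 10 genes called in C3H/10T1/2 whose effects differed most between the lines, 5 in each direction. For Ndrg1 the values are 1.13 in C3H/10T1/2 and -0.47 in 3T3-L1. Osr2 was under the presence level on all 6 C3H/10T1/2 arrays, and Plekha7 reached it on 1 of them. With signals floored at the presence level the differences of Xrcc5, Timeless, Osr2, Plekha7, Maff and Ccdc136 did not pass.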

How the data were processed

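C3H/10T1/2 adipocytes were profiled on Affymetrix Mouse Genome 430A arrays, 1 array per sample. The deposited intensities are MAS 5.0 signals that the authors background-corrected and scaled to a common target on a linear scale (trimmed mean 150.1 on every array), with software versions beyond MAS 5.0, and any genome build, not given in the sources used here. A signal of 0 was set to 0.1 before log2. Control probe sets were left out, and the 16123 probe sets with a group mean of 19.9 or more, which is the 95th percentile of the bacterial controls, were tested. All 36 C3H/10T1/2 arrays were fitted with limma (version 3.58.1, R version 4.3.3), using a trend by mean intensity, the replicate number as a block and Benjamini-Hochberg adjustment over all tested probe sets. RSG and DMSO arrays with the same number deviated together at all 6 times (18 of 18 pairs over 0.1, r = 0.132 to 0.307). For different numbers r was -0.221 to 0.025, but deviations were taken from each group's mean, so the ranges are not independent of each other. The number entered the main fit as a block shared by all times, not as pairs within a time. The difference between lines was fitted over 71 arrays. The model was tested on simulated data. Where all 3 arrays of a group were under the presence level, the fold was given as a bound against it.

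Each gene was represented by its probe set of highest mean over the 6 arrays. The genes named were the 25 largest falls and the 25 largest rises outside mitochondrial names, among calls with no overlap of RSG and DMSO arrays and both groups measured, up to 5 bounded genes each way, the 3 largest each way in each list, genes the study discusses, and up to 5 each way with a different effect at 48 hrs or in 3T3-L1. The marker genes, H2-Q10 and further list members (Gys2, P4ha1, Plod1, Smoc1, Nid1 and the HIF-1 targets among them) lie outside this rule and were chosen after their values were seen. The members and lists were chosen with earlier results of these data known. Promoter sequences came from RefSeq (GRCm38.p6) and were matched by symbol, 7630 of 9425 genes.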

Additional observations from a re-analysis of the deposited data

Results flagged for a closer look

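A test of the difference singled out the genes below, and no cause was tested. For H2-Q10 the RSG effect at 24 hrs was lower than that at 48 hrs by -1.74 on the log2 scale (adjusted p = 0.00793). The others differed between cell lines, and each value is the RSG effect at 24 hrs in C3H/10T1/2 minus that in 3T3-L1 on the log2 scale. The effect was higher in C3H/10T1/2 for Xrcc5 (2.98), Timeless (2.66), Osr2 (2.39), Ndrg1 (1.59), Tle6 (1.57) and Thrsp (1.16). In Timeless and Tle6 the signal was lower with RSG in both lines, and by less in C3H/10T1/2. Osr2 was under the presence level on all 6 C3H/10T1/2 arrays, and Xrcc5 on the 3 RSG arrays there.

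The effect was lower in C3H/10T1/2 for Plekha7 (-3.63), Maff (-2.79), Ccdc136 (-2.47), Pfkfb3 (-2.35), Acaa1b (-2.03), Ptpn6 (-1.93), Pck1 (-1.53), Slc4a4 (-1.29), Psmb9 (-1.12), Ccl9 (-1.07) and Wfdc21 (-1.01). Smaller differences of the same sign were found for Gbp2 (-0.883), Scarb1 (-0.858), Pfkl (-0.821), Prelp (-0.79), Cidec (-0.739), Pnpla2 (-0.64) and Bnip3 (-0.559). Plekha7 reached the presence level on 1 of the 6 C3H/10T1/2 arrays, and Ccdc136 was under it on the 3 RSG arrays there. The differences of Xrcc5, Timeless, Osr2, Plekha7, Maff and Ccdc136 rest on signals under the presence level in one line or both and are no measured folds. With signals floored at that level they were -0.37 for Xrcc5, 0.91 for Timeless, 0.681 for Osr2, -0.776 for Plekha7, -0.836 for Maff and -0.911 for Ccdc136, and none passed (adjusted p = 0.171 to 0.431). With the same floor the effect within C3H/10T1/2 did not pass for Osr2 (adjusted p = 1), Plekha7 (0.887) and Ccdc136 (0.0671). Pfkfb3, a regulator of glycolysis, averaged 534 ± 116 with RSG and 494 ± 160.0 with DMSO in C3H/10T1/2 cells, and 416 ± 67 with RSG and 73.6 ± 8.68 with DMSO in 3T3-L1 cells (SD, n = 3 each). Pck1, phosphoenolpyruvate carboxykinase, an enzyme in the supply of the glycerol backbone of triglycerides, averaged 1043 ± 26.4 with RSG and 773 ± 19.7 with DMSO in C3H/10T1/2 cells. In 3T3-L1 cells it averaged 439 ± 101 with RSG and 111 ± 15.8 with DMSO.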

How the results depend on the processing

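For RSG against DMSO at 24 hrs, 1172 probe sets were lowered with the replicate block, 656 without the replicate block and 683 with only the 2 groups fitted, and leaving out 1 array gave 749 to 986 lowered and 612 to 728 raised, against 864 raised with all arrays. For RSG at 24 hrs against DMSO at 1 hr, 727 were higher and 884 lower with all arrays. Without the block these were 447 and 532, with only the 2 groups 243 and 308, and with 1 array left out 513 to 606 and 616 to 753. For DMSO at 24 hrs against 1 hr, 1046 to 1245 were higher and 970 to 1020 lower with 1 array left out. The difference between 24 and 48 hrs had 0 higher and 1 lower. This became 1 higher without the intensity trend or with quantile normalization, 0 lower without the block and 2 lower with the block within each time, and with 1 array left out 0 to 1 higher and 0 to 4 lower. Between lines, 72 were higher and 92 lower. Those higher were 117 with a floor at the presence level, 124 with quantile normalization, 112 with the block within each time and 20 without the block, where 27 were lower, and leaving out 1 array gave 43 to 93 higher and 47 to 115 lower.

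The methods' test, on log10 signals at an unadjusted threshold with a minimum fold, called 899 probe sets higher and 1393 lower with RSG at 24 hrs, and 1 and 4 after Benjamini-Hochberg adjustment. Of the 192 named genes that were called, 114 kept the call in every alternative fit, 41 lost it without the replicate block, and none changed direction. With 3 arrays a group, genes near the presence level and small folds were measured least precisely.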

Other observations

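With RSG against DMSO at 24 hrs, 5.85% of all genes rose and 7.9% fell. Of 24 Wnt signaling genes 1 fell (Ctnnb1), and of 37 cell cycle genes 2 rose and 2 fell. Of 39 genes of TGF-beta, activin and BMP signaling 2 rose and 3 fell. The falls in that list were 7 without RSG replicate 3 or with the block within each time, and 5 after quantile normalization or with the presence floor. In the main fit the counts of these lists were near or under the shares over all genes. Of 42 genes of endoplasmic reticulum and amino acid stress 4 rose (Vldlr, Psat1, Asns and Gars) and none fell, while 17 of them were lower and 3 higher in DMSO cells at 24 hrs than at 1 hr. Of 38 proteasome genes 3 rose and 1 fell, Psmb10, a subunit of the immunoproteasome, which was also near or under the shares over all genes. Of 23 insulin signaling genes 1 rose and 5 fell, Akt2 and Ptpn1 among them, and the falls numbered 2 without the block or with only the 6 arrays fitted, and 3 without the intensity trend or without DMSO replicate 1, DMSO replicate 2, RSG replicate 1 or RSG replicate 3. Of 16 genes of the IGF system 1 rose and 3 fell. Of 41 secretory pathway genes 2 rose and 6 fell, with 0 falls when only the 6 arrays were fitted, 2 without the block, and 1 to 3 without DMSO replicate 1, DMSO replicate 2, DMSO replicate 3, RSG replicate 1 or RSG replicate 3. Of 17 carbonic anhydrases and solute carriers 3 rose (Aqp7, Slc4a4 and Car13) and 3 fell (Aqp1, Slc44a1 and Slc38a10). No member rose without the block, DMSO replicate 1, DMSO replicate 3 or RSG replicate 1, and 1 rose without RSG replicate 2.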
